A study of Schizosaccharomyces pombe with 3 samples.

Results

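Antisense noncoding RNAs that run across the start of a fission yeast gene were examined in cells whose RNA polymerase II elongates slowly. An RNA was taken when its annotation begins with SPNCRNA, when its span overlaps a nuclear coding gene on the opposite strand, when the span includes the annotated 5′ end of at least 1 such gene, and when its mean count over the libraries was at least 10. This gave 544 of the 1541 SPNCRNA rows in a table of 7049 genes. Another 39 met the overlap rule but not the count: SPNCRNA.393 over *cup1* lay just outside with a mean of 9.33 counts, and SPNCRNA.1304 over *cmt2* just inside with a mean of 11. The RNAs were chosen by position and by their mean count, and the change in the slow mutant was not itself a criterion. The mean includes both slow libraries, however, so that an RNA with few reads can pass through them although WT is lower. The lowest counts of a chosen RNA were 11 in slow #1, 2 in slow #2 and 6 in WT.

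The slow mutant was represented by slow #1 (strain FBY2324) and slow #2 (strain FBY2325), clones with *rpb1-N494D* isolated independently, with 1 library each, and the wild type by 1 library of the parental strain FBY2323. All 3 strains were h- and are labelled as lacking both fluoride exporters (fex1_delta, fex2_delta), and they shared the markers his3-D1, ura4-D18, leu1-32 and ade6-M216, and all were grown at 30 °C in minimal EMM medium with adenine, histidine, leucine and uracil to an OD600 of 0.5. Their total RNA was freed of ribosomal RNA and read by strand-specific paired-end sequencing, so that each strand of a locus has its own count. The libraries held 40746838 counts in slow #1, 30674459 in slow #2 and 31803128 in WT. In the label check, *ura4* had 0 counts in every library, but *his3*, *fex1* and *fex2* were read at 8.13 to 22.3 CPM (counts scaled to a library of 1e+06 by edgeR), and the P-cell genes *map2* and *map3* at 17.5 to 44.2 CPM although the strains are labelled h-. Of the M-cell markers, mat1-Mc had 0, 0 and 2 counts in slow #1, slow #2 and WT. The others were read in every library, *mfm1*, *mfm2*, *mam1* and *mam2* at 45.2 to 411.7 CPM and *mfm3* at 2.84 to 19.3 CPM.

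In fission yeast, as in other eukaryotes, both strands of many genes are transcribed. Transcription that comes from downstream and crosses a promoter on the opposite strand can meet the polymerase of the gene, change the chromatin at its start, or give an RNA that pairs with the mRNA. Antisense RNAs are usually kept low by the nuclear exosome, which degrades RNA from the 3′ end, by heterochromatin and RNA interference factors, and by chromatin factors that act over gene bodies. Several genes of meiosis and mating are known loci of antisense transcription in this yeast. A slowly elongating mutant of Rpb1, the catalytic subunit of this polymerase, asks how the RNAs of both strands respond to the same polymerase.

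The 544 RNAs, each annotated with 1 exon, lay on chromosomes I, II and III in numbers of 243, 206 and 95. They covered the starts of 598 genes in 600 pairs: 491 covered 1 start, 50 covered 2 and 3 covered 3 or more. Their span had a median of 1424 bases, with 253 for the shortest and 5317 for the longest. The median overlap with the sense gene was 826 bases, or 52.9% of the gene, and the RNA ran past the gene's start by a median of 343.5 bases. The whole gene was covered by 127 RNAs, and only a part of it by 417. Where an RNA covers several starts, statements on single RNAs use the gene with the longest overlap.

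**Figure D1:**
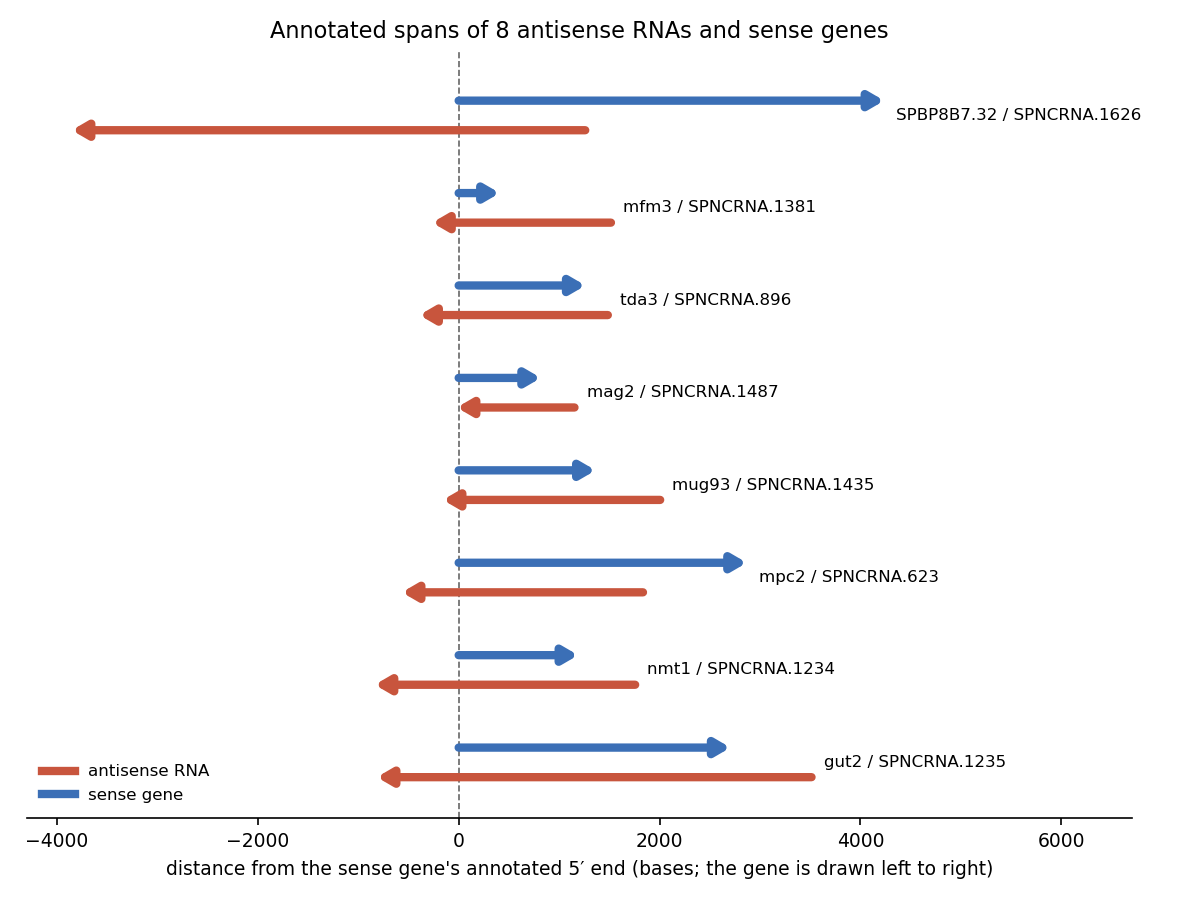
Annotated spans at 8 loci as arrows in the direction of transcription, with the antisense RNA (red) under the sense gene (blue), against the distance in bases from the gene's 5′ end. Over mfm3, tda3, mag2, mug93, nmt1 and gut2 the RNA covers the whole gene, while over SPBP8B7.32 it covers 29.8% of the gene and runs 3852 bases past its start.

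The sequences below show what the RNAs run across, for 3 genes with large increases under a covering RNA (*mfm3*, *tda3*, *mag2*) and for 2 loci whose strands moved apart (*mug93*, SPBP8B7.32). Each has 60 bases before the gene's 5′ end in lower case and 40 bases from it on in capitals, on the strand of the gene, read from RefSeq's ASM294v3 sequence by its own annotation.
mfm3, chrII:700304-700403, forward strand, under SPNCRNA.1381: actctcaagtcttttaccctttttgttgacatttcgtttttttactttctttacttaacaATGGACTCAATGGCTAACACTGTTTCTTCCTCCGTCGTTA
tda3, chrI:3226869-3226968, forward strand, under SPNCRNA.896: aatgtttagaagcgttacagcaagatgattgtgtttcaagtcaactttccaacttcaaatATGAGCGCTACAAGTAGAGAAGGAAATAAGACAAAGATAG
mag2, chrII:2120197-2120296, forward strand, under SPNCRNA.1487: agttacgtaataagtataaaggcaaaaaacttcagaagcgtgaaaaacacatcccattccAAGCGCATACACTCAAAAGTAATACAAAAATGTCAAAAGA
mug93, chrII:1461659-1461758, forward strand, under SPNCRNA.1435: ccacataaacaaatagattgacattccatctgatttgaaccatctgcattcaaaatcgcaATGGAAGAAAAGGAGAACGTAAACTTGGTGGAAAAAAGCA
SPBP8B7.32, chrII:3630317-3630416, forward strand, under SPNCRNA.1626: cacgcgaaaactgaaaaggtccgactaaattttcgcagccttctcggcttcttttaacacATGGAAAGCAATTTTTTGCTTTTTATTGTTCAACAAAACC
For *mfm3*, *tda3*, *mug93* and SPBP8B7.32 the capitals open with ATG, since RefSeq's 5′ end there is the start codon. The deposited annotation has another 5′ end for *mfm3*, *mag2* and SPBP8B7.32, and the same for *tda3* and *mug93*.

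Gene starts differ between annotations, and this bears on which RNAs belong. Of the 586 covered genes found in RefSeq, 45 had the same 5′ end there, 456 had it further downstream and 85 further upstream, with a median shift of 52 bases downstream. Of 580 pairs with both RNAs and genes in RefSeq, the RNA covered RefSeq's start in 473, which leaves 447 RNAs. The starts of *mpc2*, *rpn502*, *tal1*, *ilv5*, *dsd1* and *taz1*, described below, are among those covered only in the deposited annotation. In the deposited table, 60 of the 598 covered genes start at RefSeq's start codon.

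The ends of the RNAs were searched for AATAAA, the canonical polyadenylation hexamer, on the RNA strand, in the 100 bases before the annotated last base and the 50 from it on. It was found in 180 of 536 RNAs in RefSeq (33.6%), in 33.3% of the other antisense RNAs, in 31.4% of all SPNCRNA rows and in 32.7% of coding genes. Shown are the ends of 3 RNAs that changed in the slow mutant, with the 60 bases before the annotated last base, the 20 from it on and the hexamer in capitals. It lies within the annotated RNA in SPNCRNA.981 and past its end in SPNCRNA.1626 and SPNCRNA.1435.
SPNCRNA.1626, chrII:3626005-3626084, reverse strand: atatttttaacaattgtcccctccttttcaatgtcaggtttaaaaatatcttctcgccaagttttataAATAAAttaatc
SPNCRNA.1435, chrII:1461542-1461621, reverse strand: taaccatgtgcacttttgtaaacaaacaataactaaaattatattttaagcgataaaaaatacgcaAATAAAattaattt
SPNCRNA.981, chrI:4367443-4367522, forward strand: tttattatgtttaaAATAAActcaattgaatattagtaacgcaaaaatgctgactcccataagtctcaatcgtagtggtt
Over their whole length the 35 RNAs that rose held a median of 1.14 AATAAA per kb and 14 of the 16 that fell, those found in RefSeq, held 0.933, against 1.27 over all 536. TATAAA, the TATA box, was found on the strand of the gene in 31.9% of the covered promoters (250 bases before the RefSeq start and 50 from it on) and in 30.1% of all promoters; the other strand was not searched. TTTATT, which is AATAAA on the RNA strand, was in 40.4% of the covered and 43.4% of all promoters. A window may hold both, and a match of letters is a description only.

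The antisense RNAs were far less abundant than the genes they cover. In CPM per kb of exon, their level had a median of 6.79 in the slow mutant and 6.18 in WT, against 46.8 in the slow mutant and 46.5 in WT for the sense genes. Averaged over the libraries, an RNA stood at a median of 14.1% of its sense gene, from 0.32% to 1229%. It exceeded the gene in 54 pairs, was below 5% of it in 84 and below 1% in 6. The share of reads assigned to the wrong strand was not measured. This limit bears most on RNAs that are low beside their gene.

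**Figure D2:**
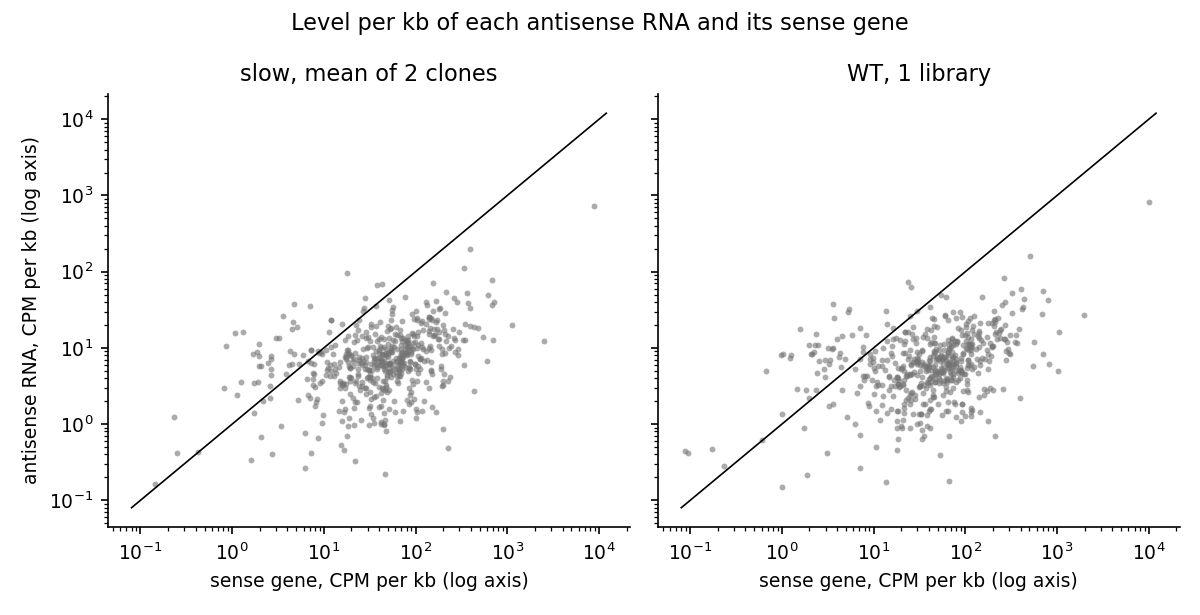
Level per kb of each antisense RNA (vertical, log axis) against its sense gene (horizontal, log axis) for 539 RNAs in the slow mutant (left, mean of 2 clones) and WT (right, 1 library), with the line of equal levels. Most points lie below the line, and 54 RNAs exceed their gene when the libraries are averaged.

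The most abundant RNA per kb was SPNCRNA.1234, which covers *nmt1*, the thiamine-repressed gene of thiamine precursor synthesis. It was read at 2214 and 1612 CPM in slow #1 and slow #2, against 2134 CPM in WT, and *nmt1* at 10860 and 10290 CPM in the slow clones, against 12090 CPM in WT. The slow clones lay on both sides of WT for the RNA, and the RNA had 8.35% of the level of *nmt1* per kb. Next came SPNCRNA.957 over *tef102*, a gene for translation elongation factor EF-1 alpha, with a mean of 200.6 CPM per kb in the slow mutant and 160.0 in WT. SPNCRNA.128 over *pre10*, a proteasome subunit gene, had 111.8 CPM per kb in the slow mutant and 83.7 in WT. The *tef102* gene has near-identical copies, so reads shared between them may be missing from its count.

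The RNAs that most exceeded their genes covered uncharacterized genes that were hardly read. SPNCRNA.728 stood at 1229% of SPAC10F6.15, SPNCRNA.1617 at 1051% of SPBC887.16 and SPNCRNA.1480 at 987.9% of SPBC16E9.20. SPNCRNA.728 had 49.7 and 51.2 CPM in the slow clones, against 26.7 CPM in WT, a rise with a log2 fold change of 0.92 ± 0.14 (standard error; edgeR adjusted p = 0.0147). SPAC10F6.15 under it had 1.88 and 1.23 CPM in the slow clones, against 1.47 CPM in WT. The RNA was thus higher in both clones, while the gene's values overlapped.

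Few of these RNAs changed beyond the stricter threshold, an adjusted p (FDR) under 0.01 with a change above 1.5-fold in edgeR's quasi-likelihood test over 6418 genes. None rose and 2 fell, 0.368% of the 544, where 0.312% of all genes rose and 0.39% fell. Unadjusted p was under 0.05 for 114 that were higher (21.0%) and 39 that were lower (7.17%), where 17.5% and 17.9% of all genes were. DESeq2 at an FDR under 0.01 and 1.5-fold called 15 up (2.76%) and 8 down (1.47%), where it called 5.0% of all genes up and 3.65% down. At an FDR under 0.05, 35 rose (6.43%) and 16 fell (2.94%), where 6.79% of all genes rose and 5.59% fell. The other 351 antisense RNAs, which lie within a gene or over its end, gave 24 rises (6.84%) and 11 falls (3.13%). The share that rose is close to that of all genes, and the share that fell is below it and close to that of the other antisense RNAs. WT has 1 library, so its spread was taken to equal that between the clones, which may in part be technical.

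The RNAs as a whole were slightly higher in the slow mutant. Their median log2 fold change was 0.158, with 0.214 in slow #1 and 0.0788 in slow #2, against 0.0105 over all genes tested. The 351 other antisense RNAs had a median of 0.174, the covered sense genes -0.0557 and all coding genes -0.032. All 1217 SPNCRNA rows with a mean count of at least 10, antisense or not and with the 544 included, had 0.168. More than 1.5-fold higher were 19.5% of the RNAs and 4.78% were more than 1.5-fold lower, beside 12.9% and 7.73% of all genes. Both clones exceeded WT for 299, both were below it for 144, and the clones lay on both sides for 101. Scaling to *nda2*, *act1* and *fba1*, the loading controls, moved the median of all genes to -0.18 and that of the RNAs to -0.0257. The direction thus holds relative to all genes only.

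**Figure D3:**
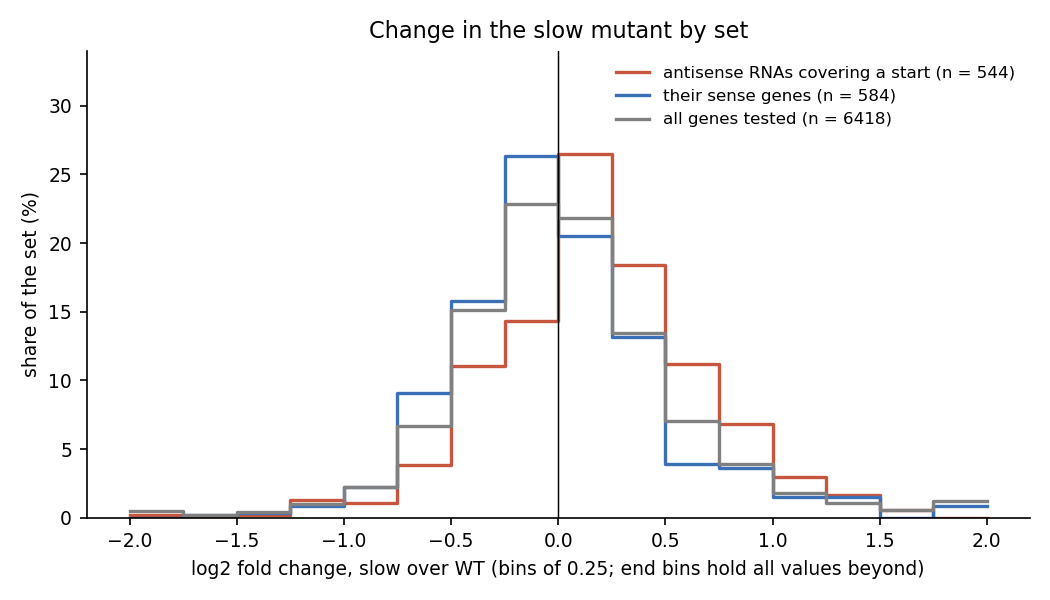
Share of each set (vertical, %) by log2 fold change of slow over WT (horizontal, bins of 0.25) for the 544 antisense RNAs, 584 sense genes and all 6418 genes. The median of the RNAs is 0.158, above those of the sense genes (-0.0557) and of all genes (0.0105).

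Short and weakly read RNAs had the higher values. The 182 RNAs with the shortest spans had a median log2 fold change of 0.33, with 56 above and 4 below 1.5-fold, and the 182 with the longest spans a median of 0.12, with 22 and 16. By level in WT, the 182 lowest per kb had a median of 0.32 and the 182 highest 0.0783. The WT level is part of the fold change, so that a low WT value raises it by construction. Other antisense RNAs in the same range of short spans had a median of 0.19, and in the range of long spans 0.13. RNAs over whole genes had a median of 0.0997 (n = 127), and those over part of a gene 0.194 (n = 417). The 70 with a coding gene on their own strand ending within 500 bases upstream had a median of 0.148, the 90 with a divergent gene starting within 500 bases 0.0964, and the 388 with neither 0.172. None of these differences was tested.

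Among RNAs past an FDR under 0.05 and 1.5-fold in both clones, with a mean count of at least 100, SPNCRNA.871 rose most. This RNA (chrI:2996868-2998123 in ASM294v2) covers 95.2% of *dni1*, a claudin-like protein gene known for cell fusion in mating. It had 232, 265 and 70 counts in slow #1, slow #2 and WT, or 5.604 and 8.832 CPM in the slow clones, against 2.19 CPM in WT, a log2 fold change of 1.71 ± 0.37 (standard error; edgeR adjusted p = 0.0326). The *dni1* mRNA had 1.47 and 1.43 CPM in the slow clones, against 2.31 CPM in WT (log2 fold change -0.67, adjusted p = 0.20). Both clones were above WT for the RNA and below it for the mRNA, and the ratio of RNA to mRNA rose 5.05-fold (adjusted p = 2.08e-06 from the pair test described below).

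SPNCRNA.981 (chrI:4366465-4367503) rose together with the uncharacterized gene SPAC23D3.17 under it. The RNA had 18.1 and 26.0 CPM in the slow clones, against 7.81 CPM in WT, a log2 fold change of 1.49 ± 0.27 (standard error; edgeR adjusted p = 0.0226). The gene had 102.8 and 136.2 CPM in the slow clones, against 42.8 CPM in WT, a log2 fold change of 1.48 ± 0.20 (standard error; edgeR adjusted p = 0.0121). Slow #2 was the highest library on both strands, and the ratio of the strands changed by 0.0058 on the log2 scale. The gene *lam4* ends 9 bases before this RNA on the same strand and had a log2 fold change of 0.85.

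Other rises came with various changes of the sense gene. SPNCRNA.1067 lies over the start of *map1*, the MADS-box factor of P-cell specific genes, and had 5.97 and 6.03 CPM in the slow clones, against 2.38 CPM in WT (log2 fold change 1.33, adjusted p = 0.0278, edgeR). The *map1* mRNA had 114.5 and 121.9 CPM in the slow clones, against 55.4 CPM in WT (log2 fold change 1.09, adjusted p = 0.0103). Both strands were thus more than 1.5-fold above WT in each clone. SPNCRNA.1159 at *tal1*, the transaldolase gene of the pentose phosphate pathway, had 12.3 and 12.2 CPM in the slow clones, against 5.0 CPM in WT, while *tal1* had 2937 and 4290 CPM in the slow clones, against 1456 CPM in WT. Their log2 fold changes were 1.29 (adjusted p = 0.0188, edgeR) and 1.31 (adjusted p = 0.0348), with the RNA at 0.497% of the level of the gene and over 1.13% of its length.

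SPNCRNA.1666 lies at the start of *ilv5*, an enzyme gene of branched-chain amino acid synthesis, and rose, while the gene did not pass the test. It had 7.05 and 6.97 CPM in the slow clones, against 2.94 CPM in WT (log2 fold change 1.25, adjusted p = 0.0278, edgeR), and *ilv5* had a log2 fold change of -0.0099. SPNCRNA.923 over *ctr5*, a copper transporter subunit gene, had 14.6 and 19.0 CPM in the slow clones, against 6.44 CPM in WT (log2 fold change 1.38, adjusted p = 0.0217), beside 0.22 for *ctr5*. At both loci each clone was more than 1.5-fold above WT for the RNA and within 1.5-fold for the gene. SPNCRNA.583 over *cfh2*, a chitin synthase regulatory gene, rose by 1.48 on the log2 scale (adjusted p = 0.0328), but 87.2% of its length is shared with another gene on its strand, where reads may not have been counted for either.

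Among the RNAs that fell, SPNCRNA.1235 (chrIII:1839787-1844115) was the clearest by FDR. It covers all of *gut2*, the mitochondrial glycerol-3-phosphate dehydrogenase gene, and starts 262 bases after *nmt1* on the same strand. It had 26.0 and 27.1 CPM in the slow clones, against 71.0 CPM in WT, a log2 fold change of -1.42 ± 0.13 (standard error; edgeR adjusted p = 0.00596). The *gut2* mRNA had 37.0 and 32.2 CPM in the slow clones, against 58.9 CPM in WT (log2 fold change -0.77, adjusted p = 0.0239). Both strands fell, and the ratio of RNA to mRNA changed by -0.65 on the log2 scale (adjusted p = 0.0699 in the pair test). The neighbor *nmt1* had a log2 fold change of -0.19.

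SPNCRNA.1531 at *erv41*, a gene of COPII vesicle transport, was the other RNA past the stricter threshold. It had 53.2 and 53.1 CPM in the slow clones, against 112.0 CPM in WT (log2 fold change -1.08 ± 0.11, standard error; edgeR adjusted p = 0.00911), and 55.9% of its length is shared with other genes on its strand. The *erv41* mRNA had 56.1 and 51.4 CPM in the slow clones, against 80.5 CPM in WT (log2 fold change -0.58, just short of 1.5-fold). Both strands were lower in each clone. With RLE size factors neither this RNA nor SPNCRNA.1235 kept an FDR under 0.01. 

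Several RNAs over whole genes fell while their genes did not pass the test. SPNCRNA.885, which covers *mug74* (a meiotically upregulated gene) and the start of *taz1* (a telomere length regulator), had 12.03 and 10.93 CPM in the slow clones, against 27.3 CPM in WT, and fell by 1.25 on the log2 scale (adjusted p = 0.0122, edgeR). The log2 fold change was 0.18 for *mug74* and 0.16 for *taz1*. SPNCRNA.655 over *rrp15*, a ribosomal RNA processing gene, had 18.86 and 20.03 CPM in the slow clones, against 43.3 CPM in WT (log2 fold change -1.16, adjusted p = 0.0109). The *rrp15* mRNA had 72.7 and 110.1 CPM in the slow clones, against 72.1 CPM in WT, a value that only slow #2 clearly exceeded, and the uncharacterized gene SPAC227.19c, whose start this RNA also covers, had a log2 fold change of -0.76 (adjusted p = 0.13). SPNCRNA.605 over *hhy1*, a hydrolase gene, fell by 1.11 on the log2 scale (adjusted p = 0.0158) to 10.5 and 10.8 CPM in the slow clones, against 22.9 CPM in WT.

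The remaining falls named here were smaller or rest on few reads. SPNCRNA.1087 over *gto1*, an alpha-glucosidase gene, had 10.0 and 10.2 CPM in the slow clones, against 19.3 CPM in WT (log2 fold change -0.94, adjusted p = 0.0240, edgeR). SPNCRNA.1358 over *eca39*, a branched-chain aminotransferase gene, had 30.8 and 23.4 CPM in the slow clones, against 48.4 CPM in WT (log2 fold change -0.83, adjusted p = 0.0365). Neither gene passed the test. SPNCRNA.329 at SPBC530.15c had only 11 and 15 counts in the slow clones, against 52 in WT (log2 fold change -2.13, adjusted p = 0.0414), and 84.8% of its length is shared with a gene on its strand.

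Whether an RNA and its gene changed differently was tested directly, on the ratio of the counts of both strands within each library. Library scaling drops out of this ratio. Over all 1109 antisense pairs with enough reads, the ratio rose in 7.03% and fell in 4.42% at an FDR under 0.01 and 1.5-fold, and rose in 12.4% and fell in 6.22% at an FDR under 0.05. Of the 585 pairs with an RNA over the start, it rose in 41 (7.01%) and fell in 31 (5.3%) at 0.01, and rose in 73 (12.5%) and fell in 38 (6.5%) at 0.05. These shares are close to those of all 1109 antisense pairs. The 585 are among those 1109, so that some closeness is built in. The fit had infinite prior degrees of freedom. Each pair's spread was therefore taken from a trend with level over all pairs, and not from its own libraries. The very small adjusted p-values of single pairs from this edgeR fit rest on that assumption. With limma on the log2 ratios, which assumed the same, 43 and 30 pairs were called at 0.01. 

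Either strand could move the ratio. Of the 41 pairs with a higher ratio, the RNA was more than 1.5-fold higher in 30 and the gene more than 1.5-fold lower in 13. Of the 31 with a lower ratio, the RNA was more than 1.5-fold lower in 12 and the gene more than 1.5-fold higher in 23. Both strands passed 1.5-fold in opposite directions in 5 pairs with a higher and 4 with a lower ratio. Among the 41 and 31 pairs, 36 and 25 had log2 fold changes of opposite sign, which the selection by ratio favors.

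**Figure D4:**
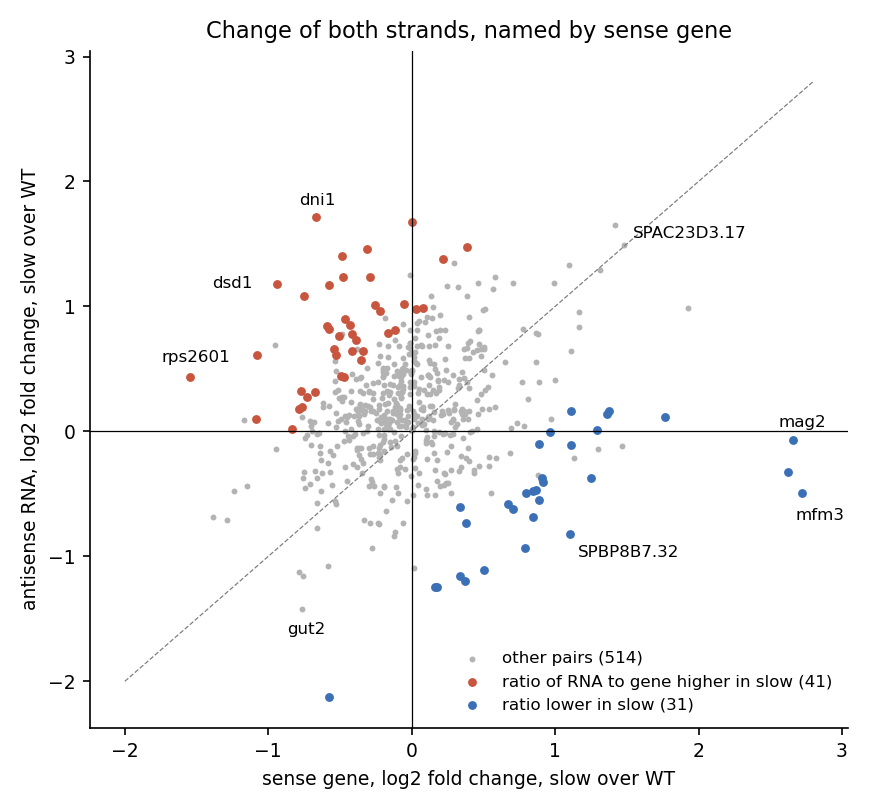
Log2 fold change of slow over WT of each antisense RNA (vertical) against its sense gene (horizontal), with pairs whose ratio rose (red, 41) or fell (blue, 31) at an FDR under 0.01 and 1.5-fold, a dashed line of equal change and names of sense genes at selected points. The mfm3, mag2 and tda3 points lie at the right, at -0.49, -0.07 and -0.33 on the vertical axis, while SPAC23D3.17 lies on the line of equal change.

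At SPBP8B7.32, an uncharacterized gene, both strands are abundant and moved apart. SPNCRNA.1626 (chrII:3626024-3631136) had 204.4 and 223.9 CPM in the slow clones, against 379.3 CPM in WT, a log2 fold change of -0.82 ± 0.13 (standard error; edgeR adjusted p = 0.0172). SPBP8B7.32 had 216.3 and 212.5 CPM in the slow clones, against 99.6 CPM in WT, a log2 fold change of 1.11 ± 0.12 (standard error; edgeR adjusted p = 0.0103). In WT the RNA was far above the gene, and in both clones the strands were nearly equal in CPM. The ratio fell by 1.93 on the log2 scale (standard error 0.31, adjusted p = 4.2e-08).

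At *mug93*, a meiotically upregulated gene with TPR repeats, SPNCRNA.1435 covers the whole gene and had 9.20 and 10.7 CPM in the slow clones, against 19.0 CPM in WT (log2 fold change -0.94, adjusted p = 0.0280, edgeR). The *mug93* mRNA had 3.74 and 5.27 CPM in the slow clones, against 2.59 CPM in WT (log2 fold change 0.79, adjusted p = 0.15). The mRNA was higher in both clones without passing the test, and the ratio fell by 1.71 on the log2 scale (adjusted p = 0.000114). At *mpc2*, a mitochondrial pyruvate carrier gene, the strands moved the other way. SPNCRNA.623 had 35.4 and 43.0 CPM in the slow clones, against 18.5 CPM in WT (log2 fold change 1.08, adjusted p = 0.0200), and *mpc2* had 85.5 and 81.5 CPM in the slow clones, against 140.2 CPM in WT (log2 fold change -0.75, adjusted p = 0.0153). The ratio rose by 1.83 on the log2 scale (adjusted p = 1.05e-09).

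Further ratios rose where the RNA overlaps only the edge of the gene. SPNCRNA.1595 at *dsd1*, a ceramide desaturase gene, had 4.69 and 7.27 CPM in the slow clones, against 2.63 CPM in WT, and *dsd1* had 112.3 and 110.5 CPM in the slow clones, against 213.8 CPM in WT, a rise of the ratio by 2.09 on the log2 scale (adjusted p = 9.4e-10). SPNCRNA.1035 had 21.4 and 27.4 CPM in the slow clones, against 9.19 CPM in WT (log2 fold change 1.41, adjusted p = 0.0177, edgeR), and overlaps 0.865% of *rpn502*, a proteasome gene whose near-identical copy makes its count uncertain. The ratio also rose for SPNCRNA.1169 at *erm1*, a metallopeptidase gene (1.75), and for SPNCRNA.768 at SPAPB1A10.08 (1.69), each a difference of log2 fold changes. In all 4 pairs the RNA was higher and the gene lower in both clones.

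The largest ratio changes came from genes that rose under an RNA that changed far less. The *mfm3* gene, a precursor of the mating pheromone M-factor, had 18.3 and 19.3 CPM in the slow clones, against 2.84 CPM in WT, a log2 fold change of 2.72 (adjusted p = 0.00496, edgeR). SPNCRNA.1381, which covers it whole and also the start of *cop1*, a coatomer gene, had 19.7 and 17.6 CPM in the slow clones, against 26.2 CPM in WT (log2 fold change -0.49, adjusted p = 0.0886). The RNA thus had more counts than *mfm3* in WT and about as many in the clones, and the ratio fell by 3.22 on the log2 scale (standard error 0.34, adjusted p = 2.03e-17).

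The DNA repair gene *mag2*, a DNA-3-methyladenine glycosylase, and *tda3*, an amino acid oxidase gene, gave a like picture. The *mag2* mRNA had 18.4 and 15.9 CPM in the slow clones, against 2.72 CPM in WT (log2 fold change 2.66, adjusted p = 0.00596, edgeR), while SPNCRNA.1487 had 7.25 and 8.37 CPM in the slow clones, against 8.16 CPM in WT. The *tda3* mRNA had 18.3 and 15.2 CPM in the slow clones, against 2.72 CPM in WT (log2 fold change 2.62, adjusted p = 0.00673), while SPNCRNA.896 had 6.81 and 7.10 CPM in the slow clones, against 8.72 CPM in WT. The slow clones enclosed WT for SPNCRNA.1487 and lay just below it for SPNCRNA.896. The ratio fell by 2.73 at *mag2* and by 2.95 at *tda3* on the log2 scale (adjusted p = 4.87e-11 and 9.07e-13).

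The meiotic cyclin gene *rem1* and the beta-glucosidase gene *psu2* also rose under RNAs that did not pass the test. The *rem1* mRNA had 3.09 and 2.20 CPM in the slow clones, against 0.781 CPM in WT (log2 fold change 1.77, adjusted p = 0.0409, edgeR), and SPNCRNA.1481 over it, 59.7% of which is shared with genes on its strand, had 2.42 and 1.53 CPM in the slow clones, against 1.84 CPM in WT. The *psu2* mRNA had 18.1 and 14.0 CPM in the slow clones, against 6.75 CPM in WT (log2 fold change 1.25, adjusted p = 0.0258), and SPNCRNA.1601 had 11.6 and 10.7 CPM in the slow clones, against 14.4 CPM in WT. The *cmt2* gene, a catechol O-methyltransferase, had a log2 fold change of 1.93 (adjusted p = 0.0128), with 17, 10 and 6 counts of SPNCRNA.1304 in slow #1, slow #2 and WT, too few to show a change.

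**Figure D5:**
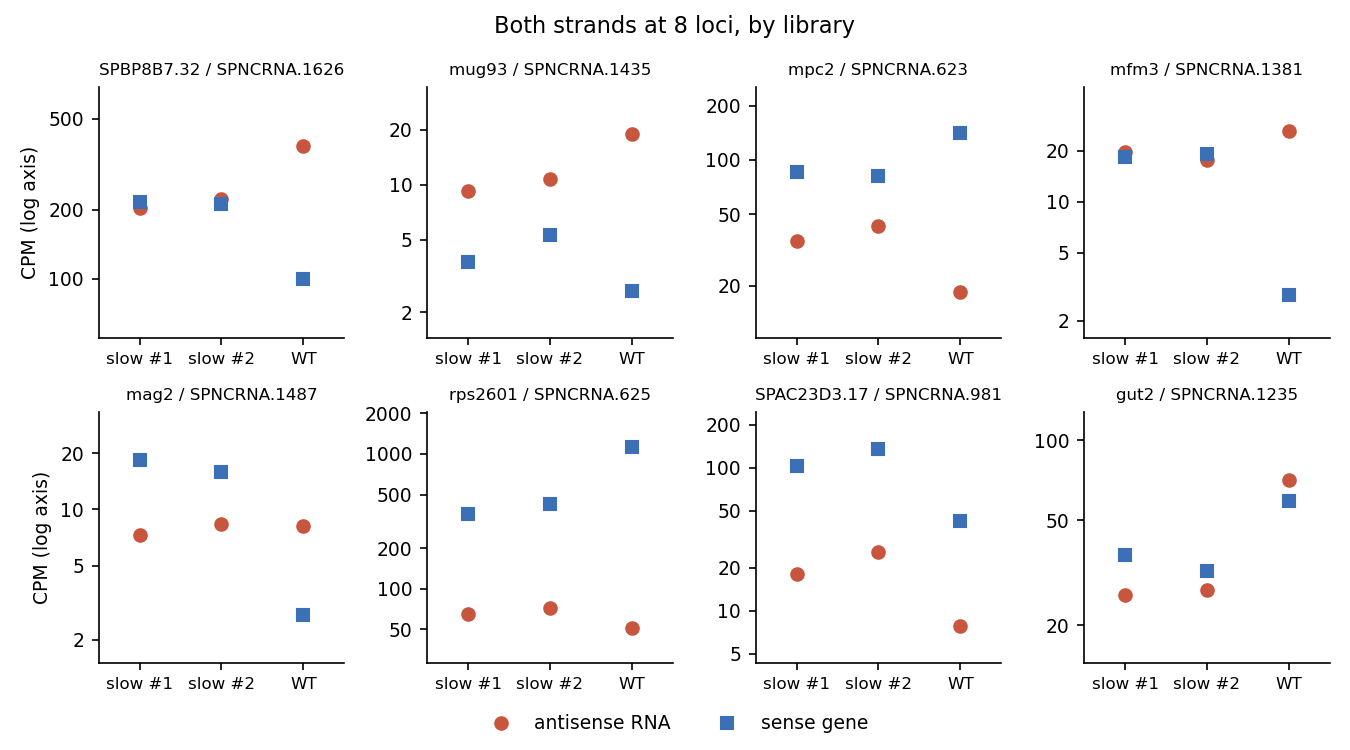
CPM of the antisense RNA (red circles) and the sense gene (blue squares) in slow #1, slow #2 and WT at 8 loci, each panel with its own log axis. At SPBP8B7.32 the strands are nearly equal in both clones and apart in WT, at mag2 and rps2601 the gene moves over an RNA that changes far less, and at SPAC23D3.17 and gut2 both strands move the same way.

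The strongest fall of a covered gene was that of *rps2601*, a gene for ribosomal protein eS26. It had 355.4 and 423.0 CPM in the slow clones, against 1134 CPM in WT (log2 fold change -1.54, adjusted p = 0.00913, edgeR). SPNCRNA.625, which covers it whole, had 65.0 and 72.3 CPM in the slow clones, against 50.8 CPM in WT (log2 fold change 0.43, adjusted p = 0.0706), and the ratio rose by 1.98 on the log2 scale (adjusted p = 9.34e-07). The gene was lower and the RNA higher in both clones.

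Transport genes made up 3 of the other 4 largest falls of covered genes, and their RNAs were lower as well. The *thi7* transporter gene had 74.0 and 76.4 CPM in the slow clones, against 183.3 CPM in WT (log2 fold change -1.29, adjusted p = 0.00596, edgeR), and SPNCRNA.1316 over its start had 9.32 and 9.10 CPM in the slow clones, against 15.03 CPM in WT (log2 fold change -0.71, adjusted p = 0.04998). The proline transporter gene *put4* had 13.89 and 16 CPM in the slow clones, against 38.9 CPM in WT, with SPNCRNA.1091 at a log2 fold change of -0.69 (adjusted p = 0.0581). The thiamine transporter gene *thi9* had 394.1 and 404.9 CPM in the slow clones, against 885.7 CPM in WT, with SPNCRNA.743 at -0.43 (adjusted p = 0.18). The mitochondrial translation GTPase gene *guf1* had 19.8 and 20.1 CPM in the slow clones, against 47.1 CPM in WT, with SPNCRNA.1037, which had a mean of 64 counts and shares 79.3% of its length with a gene on its strand, at -0.47 (adjusted p = 0.35). In all 4 the ratio was higher in the slow mutant by 0.58 to 0.77 on the log2 scale, and none of these ratios passed an FDR of 0.05.

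Across the 539 RNAs whose sense gene was tested, the change of the RNA and the change of the gene had a weak correlation. Pearson's r of the log2 fold changes was 0.0975 and Spearman's rho 0.118, with 0.13 and 0.143 in slow #1 and 0.0726 and 0.0842 in slow #2. The signs were opposite in 272 pairs and the same in 267. These pairs share libraries, depth and the single WT library, so the values are a description across loci. For the 351 other antisense RNAs r was 0.032. Of the 35 RNAs that rose at an FDR under 0.05, the sense gene was higher in 24 and lower in 11, with 5 called up and 1 called down. Of the 16 that fell, it was higher in 6 and lower in 10, with 1 called up and 2 called down. Over all 584 covered genes tested, 264 were higher in the slow mutant. At an FDR under 0.05, 6.51% of them were called up and 6.51% called down.

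The relation differed with the relative level of the strands, as a description. Where the RNA exceeded the gene, r was -0.238 and rho -0.352 (n = 54), with opposite signs in 35. Where it stood at 5% to 20% of the gene, r was 0.304 (n = 259), at 20% to 100% 0.0803 (n = 142), and under 5% 0.0611 (n = 84). For RNAs over whole genes r was -0.147 (n = 123), and for those over part of a gene 0.205 (n = 416). Other antisense RNAs that exceeded their gene had an r of 0.174 (n = 32). The change of the RNA had an r of 0.0215 with that of a coding gene ending upstream on its own strand (n = 69), and of 0.182 with that of a divergent upstream gene (n = 90). None of these differences in r was tested.

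The covered genes themselves changed about as often as others. Of the 584 tested, 3 rose (*mfm3*, *mag2*, *tda3*) and 2 fell (*rps2601*, *thi7*) at an FDR under 0.01, 0.514% and 0.342%. At that threshold 0.317% of all coding genes tested rose and 0.436% fell. At an FDR under 0.05, 38 rose and 38 fell, 6.51% in each direction, beside 6.17% and 6.19% of the 5041 coding genes. Genes with a mug or related meiotic name made up 21 of the covered genes (3.51%) and 2.89% of all coding genes. Cytoplasmic ribosomal protein genes made up 12 of them (2.01%) and 2.49% of all coding genes. The 21 meiotic names had a median log2 fold change of 0.17, and the RNAs over them of -0.0078.

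Of a list of 25 mating genes and targets of Ste11, the transcription factor of sexual development, 13 rose and 1 fell at an FDR under 0.05 (52% and 4%, where 6.79% of all genes rose and 5.59% fell), with a median log2 fold change of 0.67. In 5 of them (*gpa1*, *map1*, *mfm3*, *rgs1*, *ste6*) an RNA covers the start. The *ste6* gene, a Ras activator of the pheromone response, had 214.8 and 204.7 CPM in the slow clones, against 97.0 CPM in WT (log2 fold change 1.11, adjusted p = 0.0103, edgeR), under SPNCRNA.1227 with 27.8 and 25.1 CPM in the slow clones, against 23.7 CPM in WT. The ratio at *ste6* fell by 0.95 on the log2 scale (adjusted p = 0.00373). The pheromone signaling regulator *rgs1* had 155.0 and 159.1 CPM in the slow clones, against 84.7 CPM in WT (adjusted p = 0.0121), and SPNCRNA.675 over its start had a log2 fold change of 0.40. For *gpa1*, the G protein alpha subunit, neither strand passed the test. At these loci the 4 RNAs other than that of *map1* did not pass the test.

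Of 21 core stress genes, 7 rose and 2 fell at an FDR under 0.05 (33.3% and 9.52%, against 6.79% and 5.59% of all genes), and 6 (*fbp1*, *gpd2*, *gst1*, *ntp1*, *sro1*, *trr1*) have a covered start. The gluconeogenic gene *fbp1* averaged 12.2 ± 1.61 CPM in the slow clones (SD, n = 2), against 6.63 CPM in WT (log2 fold change 0.89, adjusted p = 0.0471, edgeR), and SPNCRNA.1324 over the whole of it had 23.6 and 25.8 CPM in the slow clones, against 36.2 CPM in WT (log2 fold change -0.55, adjusted p = 0.0553). The trehalase gene *ntp1* had 445.5 and 474.2 CPM in the slow clones, against 244.7 CPM in WT (adjusted p = 0.0167), with SPNCRNA.1327 at a log2 fold change of -0.38. At both loci the gene was higher and the RNA lower in each clone, and the ratio fell by 1.44 at *fbp1* and by 1.29 at *ntp1* on the log2 scale (adjusted p = 0.000161 and 0.000896). Among the other covered stress genes *gpd2* fell (log2 fold change -0.63, adjusted p = 0.0331, edgeR). The *gst1*, *sro1* and *trr1* genes did not pass the test (log2 fold changes -0.635, 0.366 and -0.102). The RNAs over these genes are not described here.

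Of 66 genes on a list of exosome, TRAMP, MTREC, RNA interference, heterochromatin, chromatin, decay and termination factors, 0 passed an FDR under 0.01 in edgeR, while 19 had an unadjusted p under 0.05 (5, or 7.58%, with higher and 14, or 21.2%, with lower values, where 17.5% and 17.9% of all genes had one). DESeq2 at an FDR under 0.01 called 1 up (1.52%) and 3 down (4.55%), where it called 5.0% of all genes up and 3.65% down. At an FDR under 0.05, *stc1* rose and *dis3*, *rrp46* and *mmi1* fell (1.52% and 4.55%, where 6.79% of all genes rose and 5.59% fell). The list had a median log2 fold change of -0.12, and its 13 nuclear exosome genes one of -0.24. The *dis3* gene, the catalytic exosome subunit, had 243.1 and 238.1 CPM in the slow clones, against 379.4 CPM in WT (log2 fold change -0.66, adjusted p = 0.0246). The *mmi1* gene, which marks meiotic transcripts for decay, had 112.6 and 116.4 CPM in the slow clones, against 176.6 CPM in WT (log2 fold change -0.63, adjusted p = 0.0224). The *stc1* gene, which links RNA interference to heterochromatin, had 28.4 and 32.6 CPM in the slow clones, against 16.9 CPM in WT (log2 fold change 0.85, adjusted p = 0.0288), and 0.65 without a call when scaled to *nda2*, *act1* and *fba1*. The part of these changes in the levels of the antisense RNAs was not tested.

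The exosome subunit gene *rrp46* is itself one of 5 listed factors (with *cft2*, *pab2*, *pla1* and *swd22*) whose start an antisense RNA covers. It had 155.2 and 113.1 CPM in the slow clones, against 284.1 CPM in WT (log2 fold change -1.08, adjusted p = 0.0221, edgeR). SPNCRNA.1377 over 33.5% of it had 18.38 and 11.96 CPM in the slow clones, against 14.2 CPM in WT, so that the clones lay on both sides of WT. The ratio rose by 1.17 on the log2 scale (standard error 0.27, adjusted p = 0.000291).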

How the data were processed

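Total RNA of 2 slow clones and 1 wild-type culture was measured. The authors trimmed reads with Trimmomatic 0.36, aligned them to ASM294v2 with STAR 2.5.1 and counted read pairs by strand with featureCounts, of a version not given in the sources used here. Raw counts per gene were deposited. The options named include none for reads that map to several places or overlap several genes of one strand. The table's Length column, another kind of deposited value, gave the kb of CPM per kb. DESeq2 1.24 was the authors' own test.

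The slow clones were compared with WT by edgeR's quasi-likelihood test (edgeR 4.0.16, R 4.3.3) after filterByExpr (min.count 10, min.total.count 15) and TMM, with Benjamini-Hochberg adjustment over all genes tested. The common dispersion was 0.0124, with 5.25 prior and 1 residual degrees of freedom. Pairs were tested in edgeR with 1 row per pair, both strands as columns, a term per library and a term for the RNA strand in slow. The common dispersion of this pair fit was 0.012, with infinite prior degrees of freedom. Values per clone use a prior count of 2. Alternatives were RLE size factors, scaling to *nda2*, *act1* and *fba1*, no filter, DESeq2 1.42.0, limma 3.58.1, pairs with at least 100 counts or with an RNA at 5% or more of the gene, leaving out each clone, and RefSeq's gene starts.

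The RNAs, gene lists and tests were chosen with earlier results of these data known. Named are up to 8 RNAs each way with the largest change (an FDR under 0.05, 1.5-fold in both clones, a mean count of at least 100, and 1 each way at lower counts), up to 6 pairs each way by ratio change, up to 5 RNAs each way by the change of the gene, the 3 highest RNAs by level and the 3 by ratio to the gene, and called factors that limit antisense RNA; other covered genes of the lists and neighboring genes were chosen after their values were seen. Gene names came from RefSeq's ASM294v3 table, which matched 6844 identifiers. Coordinates are those of ASM294v2 in the deposited table, 1-based, except for printed sequences, which have those of ASM294v3.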

Additional observations from a re-analysis of the deposited data

How the results depend on the processing

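No paired analysis was possible because the wild type has 1 library without a replicate number. Counts at an FDR under 0.01 moved with the fit, the filter and the scaling. Of the antisense RNAs, 0 rose and 2 fell in the main comparison, against 7 and 18 with scaling to *nda2*, *act1* and *fba1*, 5 and 6 without the low-count filter, 15 and 8 with DESeq2, and 0 falls with RLE size factors. Of the covered genes, 3 rose and 2 fell, against 22 and 69 with that scaling, 17 and 14 without the filter, 34 and 32 with DESeq2, and 0 and 0 with RLE factors. At an FDR under 0.05 the same scaling gave 31 falls of RNAs against 16 and 92 falls of genes against 38, and it turned the median of the RNAs to -0.0257. It also moved the median of all genes to -0.18. The cause was not tested. The shares of all genes called with that scaling or without the filter are not given here. These counts therefore do not set the RNAs or their genes apart. With RefSeq's gene starts, an alternative chosen after seeing the data, 1 RNA fell at 0.01 and 26 ratios rose against 41. Without either clone, the median lay between 0.0788 and 0.214 and r between 0.0726 and 0.13; counts of calls were not run there, since 1 library against 1 leaves no residual degrees of freedom. The other counts of pairs moved by less than 1.5-fold under each alternative run. Of 82 named RNAs and genes, DESeq2 moved 2 past the threshold and 2 out of it, RLE factors 1 and 5, that scaling 9 and 2, and no filter 2 and 0; no called value changed sign. SPNCRNA.329 and SPNCRNA.1316 lost their calls with DESeq2 and with RLE factors, and SPNCRNA.1358, *rem1* and *tal1* with RLE factors; *stc1* and SPNCRNA.1617 lost theirs with that scaling.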
